A study of Trametes versicolor with 12 samples.

Results

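The comparison is between the 4-week cultures of 2 strains of Trametes versicolor, a basidiomycete fungus that causes white rot of wood. They are 1956-1252, held in the NIBIO collection, and BRFM1218. The members are all libraries labelled 4 weeks, which are 6 of the 12 libraries of the series: cultures 4w-1 to 4w-3 of 1956-1252 and cultures 4w-1 to 4w-3 of BRFM1218. All were mycelium grown on agar with 4% malt, RNA came from separate cultures, and the labels name no treatment or mutation of either strain. A group is thus 1 strain grown 3 times, so the spread between libraries is that of cultures of that strain and not that of strains. The other 6 libraries, of 2-week cultures, are used below only to ask whether a strain difference was also present at the earlier age.

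White-rot fungi break down lignin with secreted oxidoreductases. Lignin, manganese and versatile peroxidases are related haem enzymes (class II peroxidases) that use hydrogen peroxide. Dye-decolorizing peroxidases and haem-thiolate peroxidases are unrelated haem families, the second of which also inserts oxygen into organic compounds, and laccases are copper enzymes that oxidise phenols with molecular oxygen. The files name genes only by protein number. A gene table of the species gave a locus tag to 14250 of the 14296 gene models and a symbol to 42. All but TvFet3A, a ferroxidase-type multicopper oxidase gene, are in these families or in 2 other groups of haem enzymes. The 42 are described by family. No sequences were at hand to print.

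The 4-week libraries held 54717436 to 59387307 reads on genes in 1956-1252 and 34004441 to 63512650 in BRFM1218, the lowest being culture 4w-3 of BRFM1218. Between 1178 and 1194 models had no read in a 1956-1252 library and between 1561 and 1971 in a BRFM1218 library. Replicates of a strain correlated at a Pearson r of 0.985 to 0.997 over log2 levels, and libraries of different strains at 0.745 to 0.75. Levels are CPM, read counts divided by the library total and normalised with TMM (trimmed means of M values), unless RPKM is named. A log2 difference is that of 1956-1252 minus BRFM1218, so that 1 is 2-fold higher in 1956-1252. A gene is called where edgeR's quasi-likelihood test, with Benjamini-Hochberg adjustment over 12556 genes, gave a p under 0.05. In mycelium sampled in bulk, fewer cells of a type and less RNA per cell cannot be told apart. Whether reads of 1 strain aligned less completely than those of the other was not tested, and every value takes them as equal.

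In 4-week mycelium of 1956-1252 the genes DyP2, HTP1, MnP3s and LDO2 were 4.58- to 26.2-fold higher than in BRFM1218, and DyP1, HTP2, CCP1, LiP9 and VP2 were 2.41- to 11-fold lower. Of the 42 genes with a symbol, 20 were called higher and 8 lower in 1956-1252, and 14 were not called. Most genes differed between the strains: 84.2% of all tested genes were called, 43.9% as higher and 40.3% as lower in 1956-1252. The 28 calls are therefore a smaller share of the 42 than of the genome, and it is the sizes, the directions within a family and the leading genes that the following paragraphs give. The median log2 difference was 0.39 over the 42 genes and 0.09 over all genes. With a difference of at least 2-fold also required, 9 were higher and 5 lower, against 27.7% and 23.1% of all tested genes (50.8% in either direction). In 30 of the 42 the replicates of the strains did not overlap, against 86.3% of all genes. With a trend against expression level removed, 14 of the 42 were called higher and 18 lower, with a median of -0.18. With no scaling beyond library size, 28 were higher and 6 lower, with medians of 0.95 over the 42 and 0.66 over all genes. Upper quartile scaling gave 25 higher and 6 lower, with a median of 0.70. The balance of directions thus rests on such choices.

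**Figure D1:**
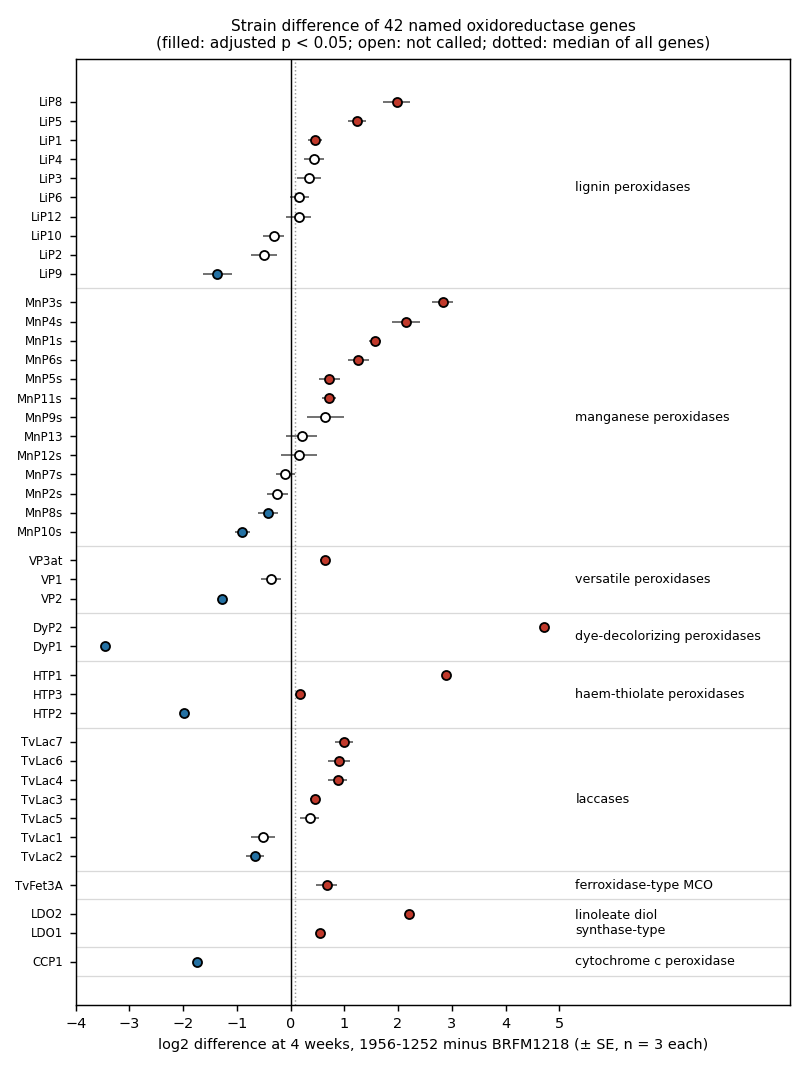
Log2 difference at 4 weeks (1956-1252 minus BRFM1218, horizontal axis) of the 42 genes with a symbol, in rows by family, with bars for 1 standard error (3 libraries per strain). Filled points were called (red higher, blue lower in 1956-1252) and open points were not; DyP2 at 4.71 and DyP1 at -3.46 are the extremes, and the dotted line is the median of all genes at 0.09.

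The dye-decolorizing peroxidases, which act on dyes and some lignin model compounds, differed in opposite directions. DyP2 was at 140, 134 and 133 CPM in 1956-1252, against 5.03, 5.27 and 5.2 CPM in BRFM1218. Its groups were far apart, with a log2 difference of 4.71 (SE 0.07, adjusted p = 4.22e-13), 26.2-fold. DyP1 was at 70.6, 68.9 and 71.7 CPM in 1956-1252, against 771, 846 and 709 CPM in BRFM1218. Its log2 difference was -3.46 (SE 0.07, adjusted p = 3.05e-12), 11-fold lower in 1956-1252. The genes lie 4 places apart in the order of protein-coding genes. The 3 models between them, looked up after these values were seen, differed by far less: TRAVEDRAFT_72801 by -0.73, TRAVEDRAFT_72802 by 0.61 and TRAVEDRAFT_150496, which was not called (adjusted p = 0.523), by 0.03.

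Haem-thiolate peroxidases were likewise split. HTP1 was at 242, 241 and 240 CPM in 1956-1252, against 30.2, 30.9 and 36.3 CPM in BRFM1218 (log2 difference 2.90, SE 0.07, adjusted p = 1.51e-11). HTP2 was at 18.7, 19.0 and 19.9 CPM in 1956-1252, against 76.4, 73.6 and 77.5 CPM in BRFM1218 (-1.98, SE 0.06, adjusted p = 1.65e-10). HTP1 was thus 7.46-fold higher and HTP2 3.95-fold lower, and in neither did the strains overlap. HTP3, next to HTP2 in gene order, was nearly level at 60.3, 65.0 and 63.2 CPM in 1956-1252 and 55.3, 56.0 and 54.9 CPM in BRFM1218. That difference of 0.18 (SE 0.06, adjusted p = 0.0131) was called but is close to the median of all genes, and the call ended without 1956-1252 culture 4w-2 (0.15, adjusted p = 0.0738) and with a trend against gene length removed (0.10, adjusted p = 0.117).

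The genes LDO1 and LDO2 are grouped as linoleate diol synthase-type haem enzymes, which oxygenate fatty acids, and both were called higher in 1956-1252. LDO2 was at 608, 579 and 587 CPM in 1956-1252, against 125, 129 and 134 CPM in BRFM1218 (2.20, SE 0.05, adjusted p = 5.86e-12). LDO1 was at 279, 265 and 271 CPM in 1956-1252, against 184, 176 and 196 CPM in BRFM1218 (0.56, SE 0.05, adjusted p = 1.17e-06). The call of LDO1 ended in a test against a fold of 1.5. CCP1, the gene of a cytochrome c peroxidase, a mitochondrial enzyme in yeast, was at 48.0, 49.0 and 48.7 CPM in 1956-1252, against 159, 157 and 174 CPM in BRFM1218. It was 3.36-fold lower in 1956-1252 (-1.75, SE 0.06, adjusted p = 1.44e-10).

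**Figure D2:**
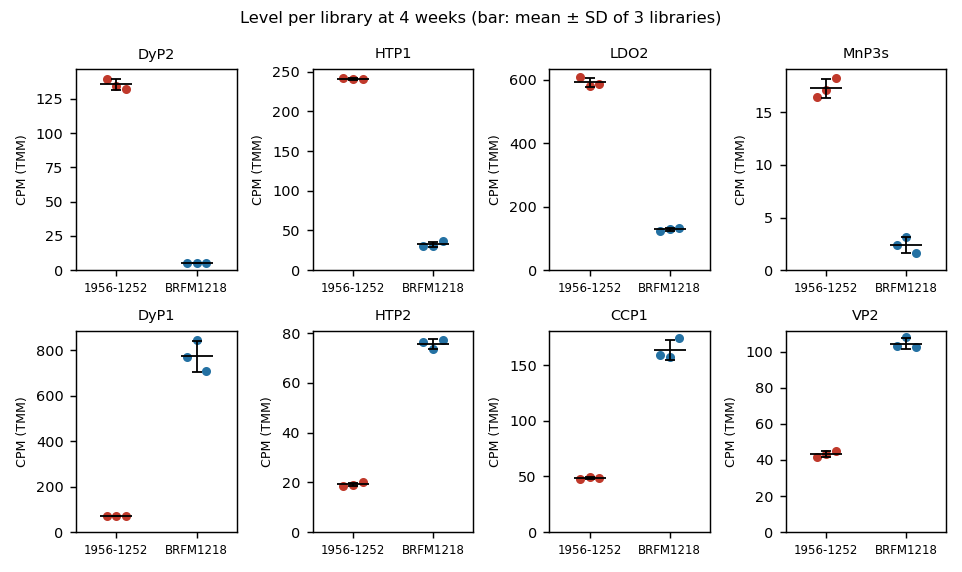
CPM after TMM scaling (vertical axes, each from 0) in the 3 libraries of 1956-1252 (left, red) and the 3 of BRFM1218 (right, blue) at 4 weeks, with mean and SD as black bars, for 8 genes. In the upper row (DyP2, HTP1, LDO2, MnP3s) every 1956-1252 library lies above every BRFM1218 library, and in the lower row (DyP1, HTP2, CCP1, VP2) every one lies below.

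Manganese peroxidases oxidise manganese(II) to a diffusible manganese(III) oxidant. Of 13 genes, all tested, 6 were called higher and 2 lower in 1956-1252, against 43.9% and 40.3% of all tested genes. The median log2 difference was 0.65, and 0.09 over all genes. With a level trend removed 4 were higher and 6 lower, and with library size only 9 were higher and 1 lower. MnP3s was at 16.4, 17.2 and 18.3 CPM in 1956-1252, against 2.39, 3.15 and 1.59 CPM in BRFM1218 (2.83, SE 0.20, adjusted p = 1.43e-07), 7.09-fold higher. MnP4s was at 6.84, 7.55 and 7.69 CPM in 1956-1252, against 2.39, 1.18 and 1.38 CPM in BRFM1218 (2.14, SE 0.25, adjusted p = 1.17e-05). Both were higher in every library of 1956-1252 than in any of BRFM1218. MnP1s, the highest of the family per length in 1956-1252, was at 49.0, 50.4 and 54.7 CPM there, against 16.1, 20.1 and 15.5 CPM in BRFM1218 (1.57, SE 0.10, adjusted p = 6.61e-08). MnP6s (1.26), MnP5s (0.72) and MnP11s (0.71) were also called higher. The calls of MnP5s and MnP11s ended with the level trend removed (-0.04 and 0.29) and in a test against a fold of 1.5 (adjusted p = 0.152 and 0.0989). In the other direction MnP10s, which had the highest mean of the family per length in BRFM1218 but overlapped MnP1s there, was at 10.6, 10.6 and 12.6 CPM in 1956-1252, against 20.7, 24.6 and 17.5 CPM in BRFM1218 (-0.90, SE 0.14, adjusted p = 8.62e-05). MnP8s was at 6.08, 6.0 and 5.42 CPM in 1956-1252 and 5.98, 8.92 and 8.63 CPM in BRFM1218, where the strains overlapped. Its call (-0.42, adjusted p = 0.0463) was lost in 11 of 18 alternatives, among them the removal of any 1956-1252 library (-0.46, -0.45 and -0.37) and of BRFM1218 culture 4w-2 or 4w-3 (-0.31 and -0.35). The other 5, MnP9s, MnP13, MnP12s, MnP7s and MnP2s, had log2 differences between -0.25 and 0.65 and were not called. Without BRFM1218 culture 4w-3, MnP9s (0.90, adjusted p = 0.0254) and MnP2s (-0.44, adjusted p = 0.0152) were called. With the level trend removed, MnP13, MnP12s, MnP7s and MnP2s were called lower. With library size only, MnP9s, MnP13 and MnP7s were called higher.

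Of 5 neighbouring genes of this family, MnP4s and MnP6s were called higher in 1956-1252 in every alternative. The lower call of MnP8s was lost in most. MnP7s and MnP9s were not called, except in 2 and 3 of the 18 alternatives. MnP7s, MnP4s, MnP6s, MnP8s and MnP9s fall within 7 consecutive gene models, and their log2 differences, in that order, were -0.10, 2.14, 1.26, -0.42 and 0.65. Between MnP4s and MnP6s, looked up after the values were seen, lie TRAVEDRAFT_23041 (-1.14) and TRAVEDRAFT_131096, the second at 1187 ± 5.46 CPM in 1956-1252 and 2238 ± 122 CPM in BRFM1218 (SD, n = 3 each), a difference of -0.91. Reads of these genes were mostly unique, with the lowest unique share at 90.5%, for MnP9s in BRFM1218.

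Lignin peroxidases oxidise non-phenolic units of lignin. Of 10 genes, all tested, 3 were called higher and 1 lower in 1956-1252, against 43.9% and 40.3% of all tested genes. The median was 0.25. With a level trend removed, 2 were higher and 5 lower. LiP8 was at 4.48, 4.25 and 4.29 CPM in 1956-1252, against 1.30, 1.22 and 0.707 CPM in BRFM1218 (1.98, SE 0.25, adjusted p = 1.99e-05). LiP5 was at 10.4, 9.44 and 10.6 CPM in 1956-1252, against 4.95, 4.54 and 3.36 CPM in BRFM1218 (1.23, SE 0.17, adjusted p = 3.89e-05). In both, the strains stood clear of each other. LiP1, the highest of the family per length in each strain, was at 15.5, 16.5 and 17.95 CPM in 1956-1252, against 10.1, 14.2 and 12.1 CPM in BRFM1218 (0.45, SE 0.13, adjusted p = 0.00875). That call ended with the level trend removed (0.24, adjusted p = 0.112). LiP9 was at 1.35, 0.998 and 1.32 CPM in 1956-1252, against 3.19, 3.76 and 2.40 CPM in BRFM1218, 2.57-fold lower in 1956-1252 (-1.36, SE 0.26, adjusted p = 5.78e-04). LiP4, LiP3, LiP6, LiP12, LiP10 and LiP2 lay between -0.49 and 0.43 and were not called. With 1 BRFM1218 library left out, 4 of these were called: LiP4 without culture 4w-1 (0.57), LiP3 without 4w-2 (0.54), and LiP10 (-0.48) and LiP2 (-0.74) without 4w-3. Scaling also changed calls: LiP4, LiP3 and LiP6 were called higher with upper quartile scaling and with library size only. In these settings 6 and 7 genes of the family were called higher, in that order. With the level trend removed, LiP6, LiP12, LiP10 and LiP2 were called lower. The family's count in the lower direction was 3 without BRFM1218 4w-3.

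Versatile peroxidases combine the activities of manganese and lignin peroxidases. VP2 was at 41.9, 43.5 and 44.9 CPM in 1956-1252, against 103, 108 and 103 CPM in BRFM1218 (-1.27, SE 0.06, adjusted p = 2.41e-09). VP3at was at 28.3, 26.8 and 27.0 CPM in 1956-1252, against 19.3, 16.4 and 17.3 CPM in BRFM1218 (0.63, SE 0.09, adjusted p = 5.39e-05). VP1 was at 3.12, 2.80 and 3.05 CPM in 1956-1252, against 3.93, 3.42 and 4.28 CPM in BRFM1218. Its replicates did not overlap, yet the difference was not called (-0.37, SE 0.19, adjusted p = 0.0925). VP1 was called lower in 1956-1252 without BRFM1218 culture 4w-2 (-0.45, adjusted p = 0.0405) and with the level trend removed.

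Laccase genes differed by less than 2-fold at 4 weeks with TMM, whereas with library size only TvLac7 (1.55), TvLac6 (1.46), TvLac4 (1.44) and TvLac3 (1.02) exceeded 2-fold and the median of the 7 was 1.02. Of 7, all tested, 4 were called higher and 1 lower in 1956-1252, against 43.9% and 40.3% of all tested genes. The median was 0.46. With a level trend removed, 2 were higher and 2 lower. TvLac7 was at 8.67, 7.29 and 7.56 CPM in 1956-1252, against 3.33, 4.27 and 4.24 CPM in BRFM1218 (0.99, SE 0.17, adjusted p = 2.09e-04). TvLac6 was at 10.1, 9.06 and 9.21 CPM in 1956-1252, against 3.73, 6.64 and 4.81 CPM in BRFM1218 (0.90, SE 0.20, adjusted p = 0.00155). TvLac4 was at 7.84, 9.26 and 6.63 CPM in 1956-1252, against 3.77, 4.59 and 4.56 CPM in BRFM1218 (0.88, SE 0.18, adjusted p = 7.56e-04). These 3 were higher in every library of 1956-1252, but the calls of TvLac6 (0.40) and TvLac4 (0.30) ended with the level trend removed. TvLac3, the laccase with the highest level per length in both strains, was at 24.6, 26.3 and 25.4 CPM in 1956-1252, against 17.7, 20.8 and 17.0 CPM in BRFM1218 (0.46, SE 0.10, adjusted p = 0.00106). TvLac2 was at 7.78, 6.82 and 5.99 CPM in 1956-1252, against 10.9, 12.7 and 8.95 CPM in BRFM1218 (-0.67, SE 0.17, adjusted p = 0.00303). That lower call ended with library size only (-0.11, adjusted p = 0.541) and upper quartile scaling (-0.36, adjusted p = 0.0603), where 0 laccases were lower. TvLac5 (0.35) and TvLac1 (-0.51) overlapped between the strains and were not called. TvLac5 was called in 5 of 18 alternatives, among them library size only, upper quartile scaling and without BRFM1218 culture 4w-2 (0.60). TvLac1 was called in 3, namely with the level trend removed, with all 12 libraries in 1 fit and without BRFM1218 culture 4w-3 (-0.71). TvFet3A, a ferroxidase-type multicopper oxidase gene, was at 10.3, 9.69 and 9.42 CPM in 1956-1252, against 5.17, 8.22 and 4.95 CPM in BRFM1218 (0.67, SE 0.19, adjusted p = 0.00766). Only 85.6% of its reads in 1956-1252 and 80.6% in BRFM1218 were unique, and with unique reads alone it stayed called (0.77, adjusted p = 0.00735). Its call ended with the level trend removed (0.21) and in the test against a fold of 1.5 (adjusted p = 0.217).

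Level per length put different genes first in each strain. By deposited RPKM, which divides by model length and so allows genes of 1 strain to be ranked, HTP1 led the 42 genes in 1956-1252 at 289 ± 1.28 RPKM (SD, n = 3 here and below). LDO2 followed at 212 ± 4.18, DyP2 at 112 ± 2.70, LDO1 at 94.0 ± 1.91, HTP3 at 83.7 ± 3.67 and DyP1 at 58.6 ± 0.984 RPKM. No library of 1 of these 6 genes overlapped the next in that order, while DyP1 overlapped MnP1s, the next lower at 56.8 ± 3.32 RPKM. In BRFM1218, DyP1 led at 437 ± 34.3 RPKM, followed by CCP1 at 91.5 ± 6.05, VP2 at 62.8 ± 1.31, HTP2 at 54.0 ± 1.93, HTP3 at 50.02 ± 0.113 and LDO1 at 43.4 ± 2.76 RPKM, again without overlap between neighbours. HTP1, first in 1956-1252, was eighth there at 26.4 ± 2.96 RPKM. DyP2, the third in 1956-1252, was at rank 24 at 2.89 ± 0.0671 RPKM and overlapped VP1 and LiP5.

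Shares within a library do not depend on how libraries are scaled against each other. Of the summed RPKM of the 42 genes, dye-decolorizing peroxidases made up 13.6% ± 0.259 in 1956-1252 and 46.5% ± 1.72 in BRFM1218. Haem-thiolate peroxidases made up 31.4% ± 0.309 in 1956-1252 and 13.8% ± 1.03 in BRFM1218, and the LDO genes 24.5% ± 0.599 in 1956-1252 and 7.94% ± 0.717 in BRFM1218. Manganese peroxidases were at 11.7% ± 0.517 in 1956-1252 and 6.5% ± 0.584 in BRFM1218, lignin peroxidases at 5.54% ± 0.290 in 1956-1252 and 4.14% ± 0.508 in BRFM1218, and laccases at 4.30% ± 0.149 in 1956-1252 and 2.99% ± 0.263 in BRFM1218. Versatile peroxidases, at 5.27% ± 0.0481 in 1956-1252 and 8.09% ± 0.304 in BRFM1218, and CCP1, at 3.20% ± 0.0442 in 1956-1252 and 9.70% ± 1.01 in BRFM1218, had the smaller share in 1956-1252. The strains overlapped in none of the 9 groups. A share is pulled by the others, and DyP1 alone lowers every other share in BRFM1218. With DyP1 left out of the sum, a choice made after these values were seen, lignin peroxidases were at 5.82% ± 0.306 in 1956-1252 and 7.73% ± 1.15 in BRFM1218 and laccases at 4.51% ± 0.154 in 1956-1252 and 5.58% ± 0.662 in BRFM1218, the opposite directions. Manganese peroxidases, at 12.3% ± 0.544 in 1956-1252 and 12.1% ± 1.47 in BRFM1218, then overlapped, as did TvFet3A, while haem-thiolate peroxidases, at 32.9% ± 0.303 in 1956-1252 and 25.7% ± 1.08 in BRFM1218, kept the larger share in 1956-1252, as did the LDO genes. Versatile peroxidases and CCP1 kept the smaller share in 1956-1252, and the only dye-decolorizing peroxidase left, DyP2, had the larger.

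Across all genes, 1956-1252 was higher in 5510 and lower in 5058 of those called, and at least 2-fold so in 3472 and 2901. Among genes with at least 10 reads in each library the 2-fold counts were 2606 higher and 2625 lower, and with library size only 5085 higher and 1807 lower. With TMM and all 12556 genes, 841 genes were called at least 16-fold higher and 263 at least 16-fold lower, and at 256-fold the counts were 303 and 49. Where a strain had no or few reads, the fitted size depends on a small count that the model adds. The filter kept such models for their reads in the other strain, and they enter these counts and the bins below. The middle of the distribution was nearly even, with 25% of genes under -0.91 and 75% under 1.19. Direction went with level. In the lowest of 4 equal bins by mean CPM (up to 5.9 CPM) the median difference was 1.0, with 1528 genes at least 2-fold higher and 422 at least 2-fold lower. In the highest bin (72.3 CPM and above) it was -0.45, with 381 higher and 1137 lower. Among genes with at least 10 reads in each library the median was 0.01. The bins were not redone for those genes. The 4 bins of model length had medians between 0.00 and 0.19.

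**Figure D3:**
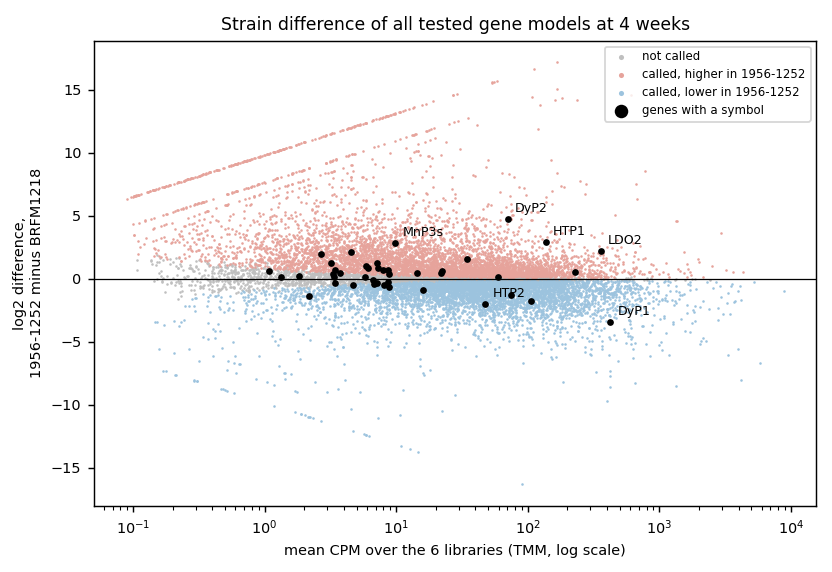
Log2 difference (1956-1252 minus BRFM1218, vertical axis) against mean CPM over the 6 libraries (horizontal, log scale) for the 12556 tested gene models; red and blue points were called higher and lower in 1956-1252, grey were not called, and black points are the 42 genes with a symbol. The slanting rows of points far from 0 are models with no or few reads in 1 strain, and low models lean upward (median 1.0 in the lowest of 4 bins) while high ones lean downward (median -0.45 in the highest bin). Models that passed the filter through their reads in 1 strain alone are included.

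Reads were spread over more genes in 1956-1252. The 100 models with most reads took 20.7, 20.2 and 20.2% of the reads in 1956-1252 libraries and 25.1, 25.2 and 25% in BRFM1218 libraries, and 795 to 811 models were needed for 50% of the reads in 1956-1252 against 522 to 524 in BRFM1218. Models at least 2-fold higher in 1956-1252 held 24.4 to 24.5% of the reads of that strain's libraries and 4.10 to 4.14% of those of BRFM1218. Models at least 2-fold lower in 1956-1252 held 17.5 to 17.7% of the reads in 1956-1252 and 53.3 to 54.4% in BRFM1218. These models were picked by their difference in the same libraries under TMM, so a larger share in the higher strain was fixed by the choice. The counts of the models with most reads involve no such choice. By those counts reads were spread differently in the strains, so scaling matters here. The TMM factors were 1.21 to 1.22 in 1956-1252 and 0.816 to 0.832 in BRFM1218. Of called genes, 52.1% were higher in 1956-1252 under TMM and 52.2% under relative log expression (RLE). Upper quartile scaling gave 61.9%, and no scaling beyond library size gave 68.9%. The median of all genes was 0.09, 0.09, 0.40 and 0.66 in the same order. Named genes that changed sign under another scaling or with a trend removed had differences of at most 0.72 in size under TMM. DyP2, HTP1, LDO2, MnP3s, DyP1, HTP2, CCP1, LiP9 and VP2 were among those that kept their direction and their call in all 18 alternatives.

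**Figure D4:**
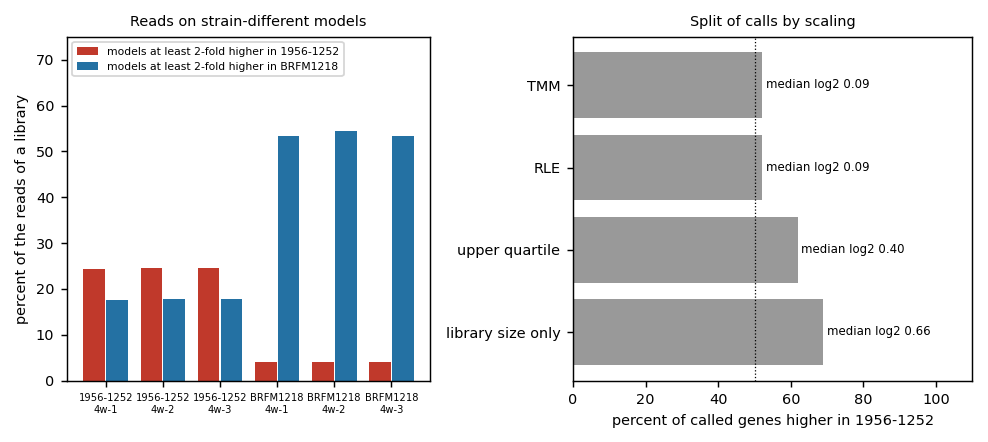
Left, percent of the reads of each 4-week library on models called at least 2-fold higher in 1956-1252 (red) or in BRFM1218 (blue): the blue bars are 53.3 to 54.4% in BRFM1218, and the red bars 24.4 to 24.5% in 1956-1252. The models were picked from these same libraries, so each colour being higher in its own strain was fixed by the choice. Right, percent of called genes that were higher in 1956-1252 under each scaling, with the median log2 difference of all genes beside each bar, from 52.1% with TMM to 68.9% with library size only.

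The largest differences among genes with at least 10 CPM on average and at least 10 reads in every library were in models without a symbol. TRAVEDRAFT_24776 was at 306, 303 and 299 CPM in 1956-1252, against 0.361, 0.463 and 0.566 CPM in BRFM1218 (9.40, SE 0.09). TRAVEDRAFT_72520 was at 1646, 1487 and 1534 CPM in 1956-1252, against 4.01, 3.86 and 4.35 CPM in BRFM1218 (8.59, SE 0.07). The next were TRAVEDRAFT_39657 (8.41), TRAVEDRAFT_130527 (8.07) and TRAVEDRAFT_22871 (7.73). In the other direction TRAVEDRAFT_23196 was at 0.878, 0.984 and 1.08 CPM in 1956-1252, against 802, 768 and 817 CPM in BRFM1218 (-9.66, SE 0.08). TRAVEDRAFT_171033 was at 5.99, 8.09 and 7.51 CPM in 1956-1252, against 2491, 3111 and 2352 CPM in BRFM1218 (-8.52, SE 0.15). TRAVEDRAFT_31823 (-8.59), TRAVEDRAFT_27535 (-8.26) and TRAVEDRAFT_50905 (-8.18) completed these. Each of the 10 passed with an adjusted p of at most 1.96e-11 and kept its call in all 18 alternatives.

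The most abundant transcripts per length overlapped only in part. Of the 100 highest models by RPKM in each strain, 46 were the same. In BRFM1218 the highest were TRAVEDRAFT_41381, TRAVEDRAFT_30442 and TRAVEDRAFT_141737, which stood at ranks 172, 337 and 2365 in 1956-1252. TRAVEDRAFT_141737 was at 31.1, 30.5 and 34.3 CPM in 1956-1252, against 8054, 9598 and 7286 CPM in BRFM1218 (-8.02, SE 0.12). TRAVEDRAFT_30442 was at 152, 166 and 159 CPM in 1956-1252, against 7569, 7891 and 7738 CPM in BRFM1218 (-5.61, SE 0.05), and TRAVEDRAFT_41381 differed by -4.91 (SE 0.09). The 5 highest in 1956-1252 were the models with protein numbers 137427, 137426 and 137431, which have no locus tag, TRAVEDRAFT_163607 and TRAVEDRAFT_22021. Models 137427 and 137431 were also among the 5 highest in BRFM1218. The differences of these 5 were small, between -0.51 and 0.58. Those of the 3 untagged models and of TRAVEDRAFT_163607 were below 0 with TMM and above 0 with library size only or with a level trend removed, so no direction is given for them. Model 137427 shares its reads with other places, with 51.6% unique in 1956-1252 and 48.1% in BRFM1218, and its level is uncertain.

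Some models were read in 1 strain only. Counting models with at least 1 CPM in 1 strain and at most 3 reads over the 3 libraries of the other, 310 were read in 1956-1252 only and 43 in BRFM1218 only. Of these, 156 and 21 had 0 reads in the other strain. In the separate 2-week cultures 267 of the 310 again had at most 3 reads over the BRFM1218 libraries, and 39 of the 43 over the 1956-1252 libraries. The highest read in 1956-1252 only was TRAVEDRAFT_53584, at 487, 483 and 462 CPM in 1956-1252 and 3 reads over the BRFM1218 libraries (ratio 20700, 95% counting interval 7080 to 100000). TRAVEDRAFT_52770 was at 362 ± 4.98 CPM in 1956-1252 with 2 reads in BRFM1218 (ratio 23500, 6510 to 194000), and TRAVEDRAFT_23834 at 335 ± 11.8 CPM with 1 read (ratio 43600, 7820 to 1720000). Read in BRFM1218 only, with 0 reads in 1956-1252, were TRAVEDRAFT_52808 at 180 ± 10.1 CPM, TRAVEDRAFT_42523 at 29.5 ± 1.75 CPM and TRAVEDRAFT_170716 at 25.3 ± 1.92 CPM. Taking 3 reads over the 3 libraries (0.0143 CPM) as the floor, they were at least 12600-fold, 2070-fold and 1770-fold lower in 1956-1252. A gene absent from a strain, a gene not transcribed and a sequence too diverged to align cannot be told apart in these counts.

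A minority of the models that differed stood in runs along the gene order, in which every neighbouring model was called and at least 2-fold different the same way. Of the 3472 models at least 2-fold higher in 1956-1252, 353 (10.2%) lay in 53 runs of 5 or more, and of the 2901 at least 2-fold lower, 98 (3.38%) lay in 17 such runs. How many runs the shares of differing models would give by themselves was not tested, nor was the difference between the directions. The longest held 18 models, from TRAVEDRAFT_137340 to TRAVEDRAFT_54536, with a median of 7.46 CPM in 1956-1252 and 0.00911 CPM in BRFM1218. At 2 weeks, 17 of its 18 models were also called at least 2-fold higher. The next held 13 models, from TRAVEDRAFT_175640 to TRAVEDRAFT_136517 (median difference 3.20), and 12 models, from TRAVEDRAFT_53584 to TRAVEDRAFT_32021. The last of these had a median of 12.9 CPM in 1956-1252 with no model above 0.0493 CPM in BRFM1218, and all 12 were called higher at 2 weeks. The longest lower run held 8 models, from TRAVEDRAFT_52169 to TRAVEDRAFT_74520 (median difference -3.68). Of the 3 lower runs of 7 models, that from TRAVEDRAFT_29973 to TRAVEDRAFT_127854 had the highest median in BRFM1218, at 22 CPM in 1956-1252 and 253 CPM in BRFM1218. The others ran from TRAVEDRAFT_57188 to TRAVEDRAFT_163861 and from TRAVEDRAFT_74729 to TRAVEDRAFT_52517 (medians -1.25 and -1.35). Among models read in 1956-1252 only, 118 of the 309 with a place in the gene order (38.2%) had another such model as a direct neighbour. Among those read in BRFM1218 only it was 8 of 43 (18.6%). A larger set has more such neighbours by number alone. The share that each set would give by its size was not tested, so these shares cannot be compared between the strains.

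Most strain differences were shared with the 2-week cultures, which are other libraries. Of genes called and at least 2-fold different at 4 weeks, 79.5% were so in the same direction at 2 weeks (77.2% of the 2-week genes), and 59 were so in the opposite direction. Across 12556 genes the log2 differences at both ages had a Pearson r of 0.92, where genes share libraries within an age and are not independent. Even so, a test of the change itself (the difference at 4 weeks minus that at 2 weeks, over all 12 libraries) called 52.9% of 12648 genes. Among the 42 genes it called 29, 15 toward 1956-1252 (25.6% of all genes) and 14 toward BRFM1218 (27.2%).

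Of the 42 genes, 24 were called between strains at both ages, 19 of them in the same direction. The share of all genes by this rule, which sets no fold limit, was not counted, so neither count is read as high or low. The 5 with opposite directions were TvLac6, TvLac4, TvFet3A, LDO1 and VP3at, all higher in 1956-1252 at 4 weeks and lower at 2 weeks. TvLac6 had a difference of 0.90 at 4 weeks and -4.08 (SE 0.15) at 2 weeks, LDO1 0.56 and -0.67 (SE 0.04), and VP3at 0.63 and -0.34 (SE 0.09). By the test of the change, 4 laccases and TvFet3A were called further toward 1956-1252 at 4 weeks, and no laccase was called further toward BRFM1218. Of 10 lignin peroxidases, 8 were called further toward BRFM1218 and none toward 1956-1252. Whether the calls of single genes by this test hold under other settings was not checked. The median of that family was 0.25 at 4 weeks and 1.05 at 2 weeks. MnP3s moved most among manganese peroxidases, with a difference of 2.83 at 4 weeks and 0.48 (SE 0.20) at 2 weeks.

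**Figure D5:**
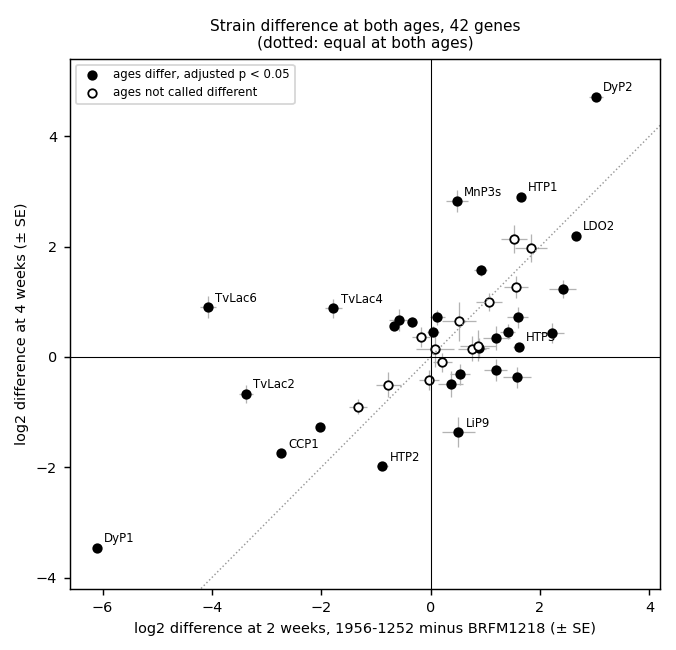
Log2 difference between the strains (1956-1252 minus BRFM1218) of the 42 genes at 4 weeks (vertical axis) and at 2 weeks (horizontal axis), with bars for 1 standard error; filled points differed between the ages at an adjusted p under 0.05, open points did not. TvLac6 and TvLac4 lie above 0 at 4 weeks and left of 0 at 2 weeks, and DyP1 lies at -3.46 at 4 weeks and -6.10 at 2 weeks.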

How the data were processed

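RNA-seq libraries of 2 strains at 2 culture ages were grouped by the strain, age and replicate number of the sample titles. Per the file headers, the authors deposited for each gene model a count of uniquely aligned reads, a count of all reads and an RPKM value; the RPKM equalled the deposited count of all reads divided by a fixed model length and the column total. Neither aligner nor counter, build or strand setting is given in the sources used here. Protein numbers were matched to locus tags of the RefSeq table of Trametes versicolor v1.0, used for names and gene order only. It marks no sequence ends, so a start lower than the one before was taken as a new sequence (171 stretches). 1 further symbol, TvFet3B, belongs to a pseudogene with no row and was not analysed here. No product descriptions were at hand, so the lists planned by description were not used.

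Counts of all reads in the 6 4-week libraries were taken into edgeR 4.0.16 (R 4.3.3): filterByExpr kept 12556 genes and removed 1740, TMM scaling was used, and the quasi-likelihood test had 4 residual degrees of freedom before moderation. The age comparison used all 12 libraries and 12648 genes (8 degrees of freedom), and its 4-week values differ slightly from those of the 6-library fit. Standard errors come from the fold change and F statistic. Fits were tested on simulated counts. The level that 3 reads represent was 0.0416 to 0.106 CPM per library; floors and intervals (exact Poisson, 95%) cover counting error only. Replicate pairs differed by more than sampling noise (chi-square per degree of freedom 5.11 to 33.3). The 18 alternatives for a gene were 3 other scalings, removal of a trend with level or with length, no filter on low counts, a minimum of 10 reads, unique reads, DESeq2 1.42.0, all 12 libraries in 1 fit, a replicate block, a test against a fold of 1.5, and each library left out.

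Named were all genes with a symbol (per-library values in families of over 5 members for the 3 largest calls each way and the highest RPKM), the 5 largest called differences each way over the limits given, the 5 highest models by RPKM, the 3 highest read in 1 strain only and the 3 longest runs. Members, lists and rules were chosen with earlier results of these data known.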

Additional observations from a re-analysis of the deposited data

Results flagged for a closer look

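The strain difference at 4 weeks differed from that at 2 weeks in 29 of the 42 genes with a symbol by a test of the change itself (edgeR, adjusted p under 0.05). Values are the log2 difference at 4 weeks minus that at 2 weeks. Toward 1956-1252 at 4 weeks these were 2.65 for DyP1, 4.98 for TvLac6, 2.67 for TvLac4, 2.71 for TvLac2, 2.36 for MnP3s, 1.70 for DyP2, 1.27 for HTP1, 1.26 for TvFet3A, 1.23 for LDO1, 1.0 for CCP1, 0.98 for VP3at, 0.76 for VP2, 0.67 for MnP1s, 0.60 for MnP11s and 0.43 for TvLac3. Toward BRFM1218 they were -1.93 for VP1, -1.86 for LiP9, -1.78 for LiP4, -1.43 for MnP2s, -1.42 for HTP3, -1.18 for LiP5, -1.09 for HTP2, -0.94 for LiP1, -0.86 for MnP5s, -0.85 for LiP3, -0.85 for LiP2, -0.84 for LiP10, -0.72 for LiP6 and -0.45 for LDO2. DyP1, CCP1 and VP2 were lower in 1956-1252 at both ages, by less at 4 weeks. LDO2 was higher at both ages, also by less at 4 weeks, and DyP2 and HTP1 were higher by more.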

How the results depend on the processing

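Of 66 named genes, 35 kept their direction and their side of the threshold in every alternative run for them. This covers the strain difference at 4 weeks only. For the change with age only the total count was compared between settings, and neither upper quartile scaling nor removal of a level trend was run. The share of called genes higher in 1956-1252, 52.1%, was 61.9% with upper quartile scaling, 68.9% with library size only, 50.9% with a length trend removed and 50.1% with at least 10 reads in each library; the median of 0.09 was 0.40, 0.66, 0.04 and 0.01 there and 0.03 with a level trend removed. Genes at least 2-fold lower numbered 1807 with library size only. Requiring 0 reads gave 156 and 21 models read in 1 strain only, and requiring 4-fold left 143 higher and 13 lower models in runs of 5 or more. The 100 highest models held 25% of unique reads in BRFM1218, against 25.1% of all reads. With DyP1 left out, chosen after seeing the data, the difference in share (1956-1252 minus BRFM1218, percentage points) turned to -1.92 for lignin peroxidases, -1.07 for laccases and 8.81 for dye-decolorizing peroxidases.

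Leaving out 1 library in turn gave 5234 to 5631 genes higher and 4846 to 5191 lower, and 6118 to 6990 genes whose strain difference changed with age. A replicate block gave 5419 higher and 4932 lower. The numbers are not stated to pair cultures, and same-numbered libraries had deviations correlated at 0.0379, 0.0213 and -0.00605; of the named calls, that of MnP8s was lost with the block (-0.41, adjusted p = 0.0845).

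Estimates changed sign with library size only for LiP10 (0.25), LiP2 (0.07), MnP7s (0.46), MnP2s (0.32), MnP8s (0.14), VP1 (0.19), TvLac1 (0.05), TRAVEDRAFT_163607 (0.34) and models 137427 (0.12), 137426 (0.15) and 137431 (0.05). They did with upper quartile scaling for MnP7s (0.21), MnP2s (0.07) and TRAVEDRAFT_163607 (0.09). With a level trend removed they did for LiP4 (-0.30), LiP3 (-0.42), LiP6 (-0.43), LiP12 (-0.61), MnP5s (-0.04), MnP9s (-0.55), MnP13 (-0.72), MnP12s (-0.92), TvLac5 (-0.06), TRAVEDRAFT_163607 (1.26) and models 137427 (0.94), 137426 (0.79) and 137431 (0.70). That setting also ended the calls of LiP1 (0.24), MnP11s (0.29), TvLac6 (0.40), TvLac4 (0.30) and TvFet3A (0.21). A test against a fold of 1.5 ended the calls of LiP1, MnP5s, MnP11s, MnP8s, VP3at, HTP3, TvLac3, TvLac2, TvFet3A and LDO1. It also ended those of TRAVEDRAFT_163607, TRAVEDRAFT_22021 and models 137427, 137426 and 137431. With 1 library left out LiP12 ranged from -0.03 to 0.30, MnP12s from -0.09 to 0.52 and MnP7s from -0.21 to 0.03. The level trend and the scalings assume that genes are balanced between strains, at each level or overall; the cause of the trend was not tested. Genes under a few CPM have the widest errors, and BRFM1218 culture 4w-3 had the fewest reads.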
